A study of Saccharomyces cerevisiae with 34 samples.

Results

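Newly made RNA and standing RNA were compared in budding yeast whose transcription kinase Kin28 had been blocked. The comparison rests on 6 of the 34 libraries of the study, chosen by strain, inhibitor and RNA fraction: nascent RNA in 4 libraries and total RNA in 2, all from kin28is cells treated with CMK. kin28is is an allele of KIN28 in the strain background BY4741, and CMK is an irreversible inhibitor of the altered kinase. Cells grew in medium without histidine and received CMK for 1 h. For the last 6 min 5 mM 4-thiouracil (4tU) was present. New transcripts take up this uracil analog, which allows them to be biotinylated and pulled down on streptavidin. CMK was at 2 µM in replicate 1 of each fraction and at 5 µM in the others, and what goes with dose cannot be told apart from what goes with the replicate set. The groups set beside it were kin28is cells given DMSO (3 nascent and 2 total libraries) and WT cells given CMK (2 nascent and 2 total), with the same labelling. A WT DMSO culture without 4tU gave 1 mock pull-down and 1 total library, which show what the beads hold without label. Labelled cells of the fission yeast S. pombe were added to every sample at 1 S. pombe to 6 S. cerevisiae cells. Levels are reads per 1000000 S. cerevisiae reads (RPM), a relative scale on which a gene is high or low only against the other genes of its library.

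Kin28 is the kinase subunit of TFIIH, a general transcription factor that opens promoter DNA for RNA polymerase II. It phosphorylates the C-terminal domain of the polymerase as transcription starts, a mark that recruits the mRNA capping enzymes and helps the polymerase leave the promoter. The pool of an mRNA is set by how fast it is made and how fast it decays: a transcript that turns over quickly takes a large share of the newly made RNA relative to its share of the pool, and a long-lived one the reverse. The nascent-to-total difference of a gene therefore describes how its place among new transcripts compares with its place in the standing pool.

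The nascent libraries of CMK-treated kin28is cells held 9692180, 323258, 380910 and 691221 S. cerevisiae reads in replicates 1 to 4, and the total libraries 6272036 and 2601485. S. cerevisiae reads per S. pombe read differed between the sets. Nascent RNA stood 3.85-fold above total RNA in pair 1 and 2.64-fold below it in pair 2. The nascent-to-total ratio of this measure was 1.86-fold and 3.12-fold lower with CMK than with DMSO in kin28is cells in pairs 1 and 2. In bulk RNA, fewer cells and less RNA per cell cannot be told apart in the S. cerevisiae to S. pombe ratio of a single fraction. The mock pull-down reached 1.03% of the S. cerevisiae to S. pombe ratio of nascent replicate 1, and 28%, 28.2% and 51.9% of that of replicates 2, 3 and 4. The a-cell genes MFA1, MFA2, STE2 and BAR1 were read in all 6 libraries, summing to 1095 to 2036 RPM in nascent and 761 to 941 RPM in total RNA, while the alpha-cell genes STE3 and SAG1 summed to 45.6 to 145 and 125 to 200.3 RPM. Of the loci deleted in BY4741, MET17 stayed at 0 to 1.45 RPM and LEU2 at 0 to 30.8 RPM. URA3 stood at 359 RPM in nascent replicate 2 and 355 RPM in the mock pull-down and near 0 in several other libraries, and HIS3 at 34 to 219.6 RPM.

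KIN28 itself (chrIV:267698-268699, sacCer3) was read in every library, at 88.8, 77.3, 28.9 and 46.3 RPM in nascent replicates 1 to 4, against 67.3 and 77.3 RPM in total replicates 1 and 2. The ranges overlapped and the nascent-minus-total difference was -0.15 ± 0.23 (log2 ± SE, edgeR adjusted p = 0.658). The allele alters the protein, so these counts do not check the genotype.

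With Kin28 blocked, new and standing RNA differed in makeup for many genes. Of 5234 features tested, 763 (14.6%) were called higher in nascent RNA and 752 (14.4%) lower, by edgeR's quasi-likelihood test with Benjamini-Hochberg adjustment at 0.05. Of 29 gene lists examined, target genes of the oxidative stress factor Yap1 had the highest median difference (1.52, log2), with 15 of 23 called higher. The mRNAs of cytosolic ribosomal proteins were low among new transcripts, with 45 of 53 small-subunit and 57 of 79 large-subunit genes called lower. Of the genes called higher, 246 differed by over 2-fold, 717 were positive in both pairs of libraries and 693 exceeded the pair without 4tU in both. Of those called lower, 542 differed by over 2-fold, 735 were negative in both pairs and 595 lay below the pair without 4tU in both. The 4 nascent and 2 total values did not overlap for 719 features (13.7%) on the high side and 686 (13.1%) on the low side.

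The p-values come from a fit of 28 libraries in 12 groups that share an estimate of spread, not from the 6 libraries alone. Fitted alone with the replicate term, the 6 libraries left 3 residual degrees of freedom and gave fewer calls, as listed at the end. Whether replicates were separate cultures is not in the labels, so the p-values reflect only how the fitted libraries spread, and that spread may be technical. The counts rest on both total libraries: without total replicate 1 the test called 256 higher and 184 lower, and without total replicate 2 it called 258 and 417. Without the replicate term it called 367 and 322, and the 5 µM libraries alone, with 4 residual degrees of freedom, gave 0 and 0 by edgeR (1054 at unadjusted p under 0.05). With scaling to S. pombe reads in place of S. cerevisiae factors, edgeR called 0 higher and 1 lower (447 at unadjusted p under 0.05), and DESeq2 with its own size factors called 933 and 890.

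**Figure D1:**
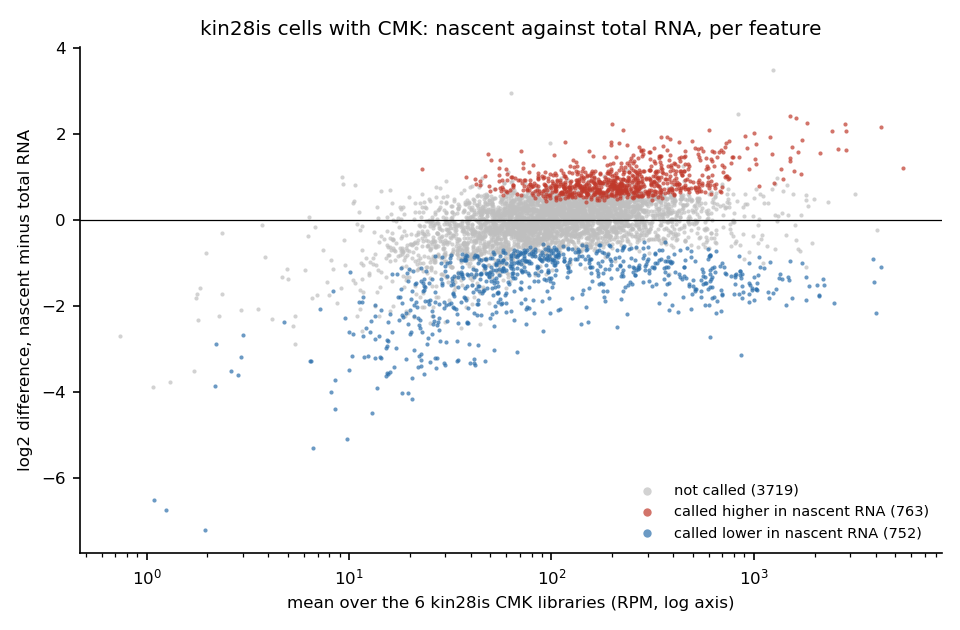
Each point is 1 S. cerevisiae feature of 5234, placed by its mean over the 6 kin28is CMK libraries (x axis, RPM on a log scale) and by its fitted log2 difference, nascent minus total RNA (y axis). Red points are the 763 features called higher in nascent RNA, blue points the 752 called lower and grey points the other 3719. The red points lie mainly above 50 RPM, with 10 of the called-higher features under that level. Of the blue points 257 lie under that level, where some reach below -4, and the others spread over higher levels, abundant genes included.

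Among called genes that averaged at least 20 RPM, did not overlap between the fractions and exceeded the pair without 4tU, the 10 largest differences were those of GRE2, AAD6, ERO1, YRO2, FLR1, SNQ2, HSP31, YLR297W, YML131W and YNL134C, with log2 differences of 2.07 to 2.42. The separation of the fractions in these 10 genes was a condition of the choice and is no finding. GRE2 (chrXV:43694-44722), a stress-induced NADPH-dependent reductase, stood at 2818, 1989, 1525 and 1976 RPM in nascent replicates 1 to 4, against 399 and 399 RPM in the 2 total libraries. The 2 µM nascent library was the highest and the 2 total libraries were alike, and the mock pull-down and total RNA without 4tU held 95.7 and 62.2 RPM. The difference was 2.42 ± 0.36 (adjusted p = 0.00026).

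FLR1 (chrII:252563-254209), a multidrug exporter of the plasma membrane, had 3782, 4083, 3061 and 4499 RPM in nascent RNA, against 698 and 835 RPM in total RNA (2.22 ± 0.30). SNQ2 (chrIV:465919-470424), an ABC transporter that confers drug resistance, had 3399.6, 4288, 6511 and 9435 RPM in nascent RNA, against 907 and 1116 RPM in total RNA (2.16 ± 0.38). For SNQ2 the 3 nascent libraries at 5 µM held more than the one at 2 µM. ERO1 (chrXIII:11483-13174), the thiol oxidase that drives disulfide formation in the endoplasmic reticulum, had 939.7, 2342, 2838 and 4073 RPM in nascent RNA, against 316 and 507 RPM in total RNA (2.25 ± 0.33). Its neighbour YML131W (chrXIII:10198-11295), which is transcribed toward it, had 4963, 3545, 2859 and 3876 RPM, against 1162 and 704 RPM. The strand setting of the counting is not stated in what was used here, so reads of overlapping or antisense transcripts of such neighbours cannot be told apart.

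HSP31 (chrIV:1501447-1502160), a stress protein that detoxifies methylglyoxal, had 1384, 566, 572 and 707 RPM in nascent RNA, against 197 and 188 RPM in total RNA. YNL134C (chrXIV:372451-373581) had 6321, 2113, 1903 and 2702 RPM in nascent RNA, against 948 and 710.4 RPM in total RNA. In both genes nascent replicate 1, at 2 µM, stood highest. AAD6 (chrVI:14305-15431), an aryl-alcohol dehydrogenase gene that RefSeq lists as a pseudogene, had 2022, 3227, 1509.5 and 2063 RPM, against 494 and 434 RPM, and shares sequence with other AAD genes. The last members were YLR297W (chrXII:724044-724433), at 244 to 359 RPM in nascent RNA, against 74.5 and 77.6 RPM in total RNA, and YRO2 (chrII:343101-344135), at 136 to 406 RPM, against 52.0 and 67.3 RPM. In the mock pull-down YRO2 had 139 RPM, above its nascent replicate 2, and its ratio to total RNA there was below those of both CMK pairs.

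**Figure D2:**
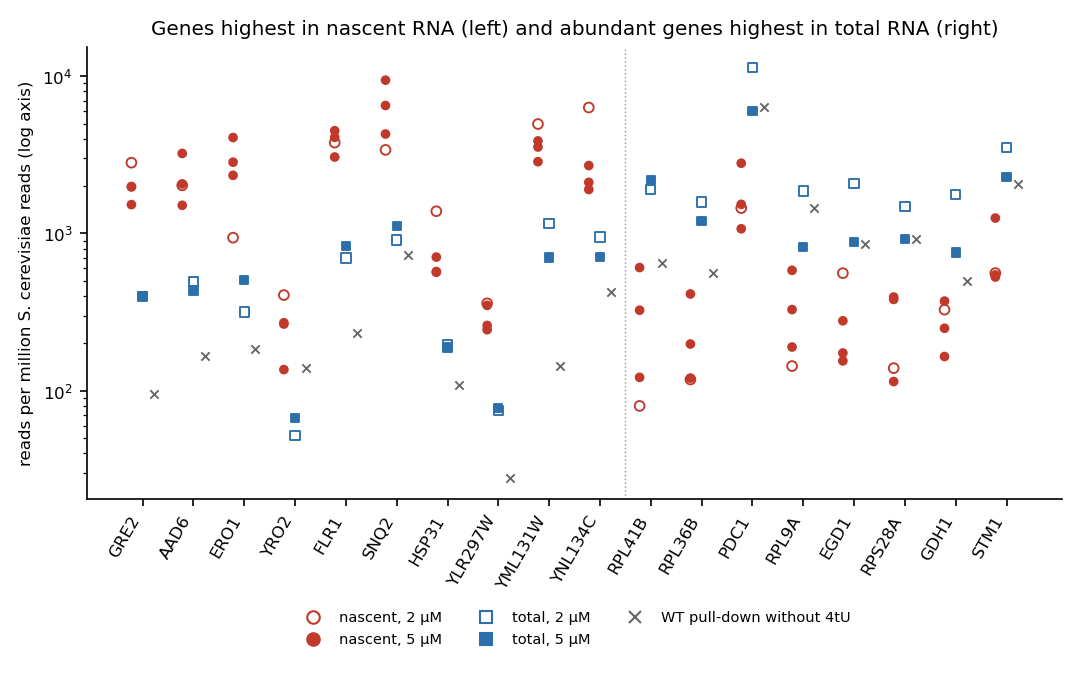
RPM (log axis) for the 10 genes with the largest nascent excess (left of the dotted line) and the 8 abundant genes with the largest total excess (right). Circles are the 4 nascent and squares the 2 total kin28is CMK libraries, open at 2 µM and filled at 5 µM, and crosses are the WT mock pull-down without 4tU. The genes were chosen with no overlap of circles and squares, and GRE2, for one, has nascent values of 1525 to 2818 RPM and total values of 399 and 399 RPM.

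Target genes of Yap1 were high among new transcripts. Yap1 is the factor that enters the nucleus under oxidative stress and switches on thioredoxins, glutathione enzymes and exporters. Of 23 listed genes tested, 15 were higher in nascent RNA and 0 lower at edgeR adjusted p under 0.05, beside 14.6% and 14.4% of all features. The list's median was 1.52 (log2), beside 0.01 over all features. Its genes took 3.60, 2.25, 1.84 and 2.41% of nascent reads in replicates 1 to 4, against 0.904 and 0.759% of total reads. Every nascent share lay above both total shares, and the mock pull-down and its total library held 0.436% and 0.385%. The median ratio was 2.03 in pair 1, 1.13 in pair 2 and -0.02 in the pair without 4tU. Leaving out any 1 of the 6 libraries gave 11 to 16 genes called higher.

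In the glutathione and thioredoxin systems, GSH1, the first enzyme of glutathione synthesis, had 1645, 613, 1066 and 1493 RPM in nascent RNA, against 337 and 292 RPM in total RNA (1.96 ± 0.35). The glutathione transferase genes GTT2 (1.66 ± 0.29) and ECM4 (1.93 ± 0.38), the peroxidase genes GPX2 (1.88 ± 0.39) and CCP1 (1.41 ± 0.29), the thioredoxin gene TRX2 (1.24 ± 0.37) and the thioredoxin reductase gene TRR1 (1.38 ± 0.35) were also called higher. YCF1, the vacuolar pump for glutathione conjugates, had 2691, 2277, 1914 and 2345 RPM, against 584 and 590.4 RPM (1.86 ± 0.37). The NADPH dehydrogenase genes OYE2 (1.63 ± 0.39) and OYE3 (1.67 ± 0.34), which resemble each other in sequence, the exporter gene ATR1 (1.52 ± 0.29) and OSI1 (1.94 ± 0.54) completed the called set with GRE2, AAD6 and FLR1. OSI1 stood at 1516, 164, 144 and 166 RPM in nascent RNA, against 143 and 96.1 RPM in total RNA, so the 2 µM nascent library lay far above the rest and the others near the total values. The 8 members not called were ZWF1 (1.17), SOD1 (0.33), AHP1 (0.04), GLR1 (0.48), GSH2 (0.07), TSA2 (-0.38), AAD14 (-0.90) and the peroxiredoxin gene TSA1 (-0.92).

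The Yap1 response element TTAGTAA was searched on both strands in the 400 bases before each start codon, in RefSeq's R64 sequence (sacCer3). It is shown because Yap1 is known to bind it. It was present in 9 of 14 called Yap1 genes with coding annotation (64.3%), in 18.4% of all genes called higher (138 of 752), in 7.66% of those called lower and in 514 of all 5116 genes with coding annotation. Each line gives 67 bases around 1 element of each gene on the gene's own strand, with the element or its reverse complement in capitals.
FLR1, chrII:254538-254604, minus strand: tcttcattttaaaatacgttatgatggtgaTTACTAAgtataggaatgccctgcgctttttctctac
ERO1, chrXIII:13327-13393, minus strand: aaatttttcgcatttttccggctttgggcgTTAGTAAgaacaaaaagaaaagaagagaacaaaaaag
YLR297W, chrXII:723741-723807, plus strand: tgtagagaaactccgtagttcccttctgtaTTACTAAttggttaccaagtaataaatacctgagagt
YNL134C, chrXIV:373733-373799, minus strand: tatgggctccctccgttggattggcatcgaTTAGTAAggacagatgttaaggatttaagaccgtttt
OYE2, chrVIII:462145-462211, plus strand: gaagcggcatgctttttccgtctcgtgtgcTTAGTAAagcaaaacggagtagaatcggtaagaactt
OYE3, chrXVI:227483-227549, minus strand: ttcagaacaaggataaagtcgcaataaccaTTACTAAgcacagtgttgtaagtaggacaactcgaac
TRX2, chrVII:913372-913438, minus strand: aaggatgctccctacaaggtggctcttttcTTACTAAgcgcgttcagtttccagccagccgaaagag
YCF1, chrIV:727678-727744, minus strand: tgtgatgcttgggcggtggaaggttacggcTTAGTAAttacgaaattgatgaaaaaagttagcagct
GTT2, chrXII:21901-21967, minus strand: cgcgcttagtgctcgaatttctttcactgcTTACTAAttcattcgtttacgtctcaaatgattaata
OSI1, chrXI:304922-304988, plus strand: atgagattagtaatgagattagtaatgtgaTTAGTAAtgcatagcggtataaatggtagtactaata
The element shown begins 98 bases before the start codon in GTT2 and 365 bases before it in FLR1, and OSI1 holds 5 copies in its window of 400 bases. ERO1, YLR297W and YNL134C are not on the Yap1 list and were among the 10 largest differences, of which 4 of the 9 with coding annotation hold the element. A match is a description of the letters and not a shown binding site. Ribosome biogenesis genes, as a comparison, held the PAC element GATGAG in 88.6% of windows, against 23.6% of all genes, and their median difference was 0.30.

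Drug resistance genes outside the Yap1 list were mixed. Of 11 pleiotropic drug resistance genes, controlled by the factors Pdr1 and Pdr3, 5 were higher and 3 lower in nascent RNA (median 0.30). Over all features 14.6% were called higher and 14.4% lower. TPO1, a polyamine exporter, had 403, 885, 698 and 846 RPM in nascent RNA, against 125 and 236 RPM in total RNA (1.65 ± 0.28). PDR5, the best known exporter of the family, did not pass, at 1144, 1142, 1034 and 1085 RPM, against 1193 and 743 RPM (0.03 ± 0.36). PDR15 (-0.58), PDR10 (-1.05) and RSB1 (-1.35) were called lower. Without total replicate 1 there were 3 higher and 1 lower, and without total replicate 2 there were 4 and 0.

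Genes of protein quality control were mostly high in nascent RNA where they were called. Of 22 chaperone genes of the heat shock factor Hsf1, 9 were higher and 2 lower (median 0.79), and of 33 proteasome genes 20 were higher and 0 lower (median 0.77). Beside these counts, 14.6% of all features were called higher and 14.4% lower. FES1, a nucleotide exchange factor of Hsp70, had 589, 1275, 1596 and 1988 RPM in nascent RNA, against 266 and 281 RPM in total RNA (2.01 ± 0.33). HSP104, the disaggregase, had 6295, 4399, 6400.5 and 9734 RPM, against 3323 and 2601 RPM (1.20 ± 0.33). Neither gene overlapped between the fractions. The Hsp90 gene HSC82, which is made in unstressed cells, went the other way with 3701, 2908, 3295 and 2478 RPM in nascent RNA, against 8275 and 4984 RPM in total RNA (-1.08 ± 0.33), as did SSE1 (-0.92 ± 0.28). The stress-inducible Hsp90 copy HSP82 was not called (0.61 ± 0.35), and reads of near-identical copies such as these are uncertain for the single gene.

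RPN4, the factor that drives proteasome genes and whose protein is short-lived, had 606, 1027, 882 and 1328 RPM in nascent RNA, against 198 and 304 RPM in total RNA (1.70 ± 0.30). RPN9, a lid subunit, had 607, 368, 213 and 244 RPM, against 147 and 115 RPM (1.53 ± 0.27). Every nascent value was higher than both total values in these genes, and for 8 of the 33 list members the groups did not overlap, beside 13.7% of all features on the high side. As a share of reads the list took 2.29, 1.14, 1.03 and 1.18% of nascent and 1.06 and 0.797% of total RNA, with nascent replicate 1 far above the rest and replicate 3 below total replicate 1. The counts called depended on single libraries: without total replicate 2, 4 proteasome and 1 Hsf1 genes were called higher. Without total replicate 1 the proteasome count was 11 and without nascent replicate 1 it was 9. Without the replicate term it was 2.

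The mRNAs of cytosolic ribosomal proteins stood low among new transcripts and high in the pool. Of 53 small-subunit genes 45 were lower in nascent RNA and 1 higher (median -1.36), and of 79 large-subunit genes 57 were lower and 0 higher (median -1.30). Over all features 14.4% were called lower. Small-subunit genes took 1.65, 2.73, 3.50 and 1.64% of nascent reads in replicates 1 to 4, against 7.80 and 4.70% of total reads. Large-subunit genes took 1.96, 3.17, 4.23 and 2.03% of nascent reads, against 9.18 and 6.02% of total reads. No nascent share reached either total share, while the pair without 4tU ran the other way, with 6.50% in the mock pull-down, against 5.03% in its total RNA for the small subunit. The difference was larger in pair 1 than in pair 2, with medians of -2.34 and -0.80 for the small and -2.03 and -0.67 for the large subunit. Without total replicate 1, 6 small-subunit and 8 large-subunit genes were called lower, and medians stood at -0.83 and -0.76.

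RPL36B (chrXVI:75699-76239), a large-subunit protein gene, had 118, 198, 412 and 120.1 RPM in nascent RNA, against 1586 and 1205 RPM in total RNA (-2.73 ± 0.41, adjusted p = 0.00026). RPS11B (chrII:332831-333812), a small-subunit protein gene, had 308, 689.9, 740.3 and 392.1 RPM, against 2174 and 1399 RPM (-1.91 ± 0.27). All 4 nascent values lay below both total values in each gene, and the 2 µM nascent library held the lowest value of each. All nascent values lay above both total values for 2 small-subunit genes and 1 large-subunit gene. RPS30A was the only ribosomal protein gene called higher (1.78 ± 0.26). It had 168, 371, 299 and 297 RPM in nascent RNA, against 69.0 and 87.6 RPM in total RNA, separated in every library. Its near-identical copy RPS30B was not called (0.72 ± 0.48), and reads may be split between the copies. Ribosomal protein genes with an intron were lower in 62 of 85 (median -1.27) and those without in 40 of 47 (median -1.48), so both classes were low in nascent RNA.

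Glycolysis genes were also low among new transcripts, and translation factors less so. Counts of both stand beside 14.4% of all features called lower and 14.6% called higher. Of 16 glycolysis and fermentation genes tested 11 were lower and 1 higher (median -1.13), and the 18 listed genes in the table took 1.13, 0.683, 1.13 and 0.662% of nascent reads, against 3.49 and 1.97% of total reads. PDC1 (chrXII:232390-234081), pyruvate decarboxylase of alcoholic fermentation, had 1449, 1531, 2796 and 1071 RPM in nascent RNA, against 11351 and 6036 RPM in total RNA (-2.16 ± 0.37). CDC19 (chrI:71786-73288), pyruvate kinase, had 1084, 804, 1153 and 532 RPM, against 4656 and 2678 RPM (-1.86 ± 0.32). In both genes every nascent value was less than the lower total value, and total replicate 1 was the highest library. TDH1, a glyceraldehyde-3-phosphate dehydrogenase copy, was called higher (1.82 ± 0.59), with 368, 71.2, 65.6 and 104 RPM in nascent RNA, against 47.2 and 47.7 RPM in total RNA, with nascent replicate 1 far above the rest. It was not called without nascent replicate 1 or 4 or total replicate 1, and its pair 2 ratio was below that of the pair without 4tU. Of 28 translation factor genes 11 were lower, 0 higher and 17 not called (median -0.48), and 9 had a difference above 0. The lower ones included STM1 (-1.97 ± 0.34) and the elongation factor 1 gene CAM1 (-1.65 ± 0.26). Without total replicate 1, 2 glycolysis and 2 translation factor genes were called lower.

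Among genes averaging at least 500 RPM, 102 were called lower without overlap of the libraries, and 57 of these (55.9%) were ribosomal protein genes, beside 66 of all 359 features at that level (18.4%). Chosen after their values were seen, RPL41B (-3.14 ± 0.65), RPL36B, PDC1, RPL9A (-2.16 ± 0.40), EGD1 (-2.11 ± 0.30), RPS28A (-1.98 ± 0.45), GDH1 (-1.98 ± 0.32) and STM1 had the largest differences. EGD1, a subunit of the complex that meets nascent proteins at the ribosome, had 559, 155, 278 and 174 RPM in nascent RNA, against 2082 and 884 RPM in total RNA. GDH1, which makes glutamate from ammonium, had 327, 371, 249 and 165 RPM, against 1762 and 755 RPM. Total replicate 1 held more than total replicate 2 in both.

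The largest differences on the low side belonged to genes read at low levels. Among called genes that averaged at least 20 RPM and did not overlap, the 10 largest were those of DAL80, SPS4, SPO1, DIA3, PEX18, STL1, POX1, PES4, NDE2 and BNA2, with log2 differences of -4.16 to -3.32. DAL80 (chrXI:506898-507707), a repressor of nitrogen catabolism genes, had 0.516, 12.4, 10.5 and 4.34 RPM in nascent RNA, against 26.8 and 68.0 RPM in total RNA (-4.16 ± 1.02). POX1 (chrVII:108158-110404), the first enzyme of peroxisomal fatty acid oxidation, had 1.13, 21.7, 44.6 and 17.4 RPM, against 47.8 and 118 RPM (-3.37 ± 0.65). Nascent replicate 1 was near 0 in both, the 5 µM nascent libraries stood between, and total replicate 2 was the highest of the 6. These levels rest on few reads in nascent RNA, 5, 4, 4 and 3 reads of DAL80 and 11, 7, 17 and 12 reads of POX1 in replicates 1 to 4, against 168 and 177 and 300 and 307 reads in total RNA. The libraries without 4tU also held reads of these genes, with 37.8 RPM of DAL80 and 42.8 RPM of POX1 in the mock pull-down and 53.1 and 92.1 RPM in its total RNA.

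Of the genes called lower, 257 averaged under 50 RPM, against 10 of those called higher and 997 of all tested. Of 23 genes of meiosis and silent loci, 13 were lower and 0 higher, with a median of -1.89, -2.86 in pair 1 and -1.001 in pair 2. Their share of reads was 0.0172, 0.0925, 0.109 and 0.0655% in nascent RNA, against 0.0978 and 0.184% in total RNA, and 0.104% in the mock pull-down, so nascent replicate 1 alone was far below every other library. REC8, a meiotic cohesin, had 3.40, 0, 28.9 and 20.3 RPM in nascent RNA, against 50.7 and 103 RPM in total RNA. As background, meiotic genes are repressed in growing haploid cells. What part of their total reads was RNA of the gene was not tested. The count was 4 without nascent replicate 1, 4 without total replicate 1 and 3 without total replicate 2.

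The M/G1 list was high in nascent RNA, and the G1/S and G2/M lists had calls only on the low side. Of 13 genes of the M/G1 transition, which act as daughter cells separate, 9 were higher and 0 lower in nascent RNA (median 0.96). Over all features 14.6% were called higher. The M/G1 median was 0.86 in kin28is cells with DMSO and 0.84 in WT cells with CMK, with 8 genes called higher in each. DSE1, a daughter-specific cell separation gene, had 626, 365, 215 and 224 RPM in nascent RNA, against 108 and 132 RPM in total RNA (1.62 ± 0.32). SIC1, which restrains S-phase kinase, had 383, 464, 391 and 486 RPM, against 227 and 174 RPM (1.20 ± 0.33). Neither overlapped between the fractions, though DSE1 was also 478 RPM in the mock pull-down. G1/S genes were lower in 5 of 34 and higher in 0, near the 14.4% of all features called lower, including CDC21 (-1.10 ± 0.28). G2/M genes were lower in 5 of 20 and higher in 0, including the septum chitin synthase gene CHS2 (-0.90 ± 0.19). Leaving out total replicate 1 left 4 M/G1, 1 G1/S and 1 G2/M genes called, and leaving out total replicate 2 left 4, 2 and 3. Without nascent replicate 1 or 4 the G1/S count was 3, and without nascent replicate 4 the G2/M count was 3.

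Histone genes were called higher in 3 of 10 (median 0.72), beside 14.6% of all features, with nascent replicate 1 far above the other libraries. HHF2, a histone H4 gene, had 488, 114, 86.6 and 120.1 RPM in nascent RNA, against 113 and 45.0 RPM in total RNA (1.49 ± 0.41), and its ranges overlapped. The list's share of reads was 0.381, 0.118, 0.0785 and 0.0830% in nascent RNA, against 0.123 and 0.0996% in total RNA, so replicate 1 was high and the 5 µM nascent libraries lay between or below the total ones. Without nascent replicate 1 edgeR called 0 histone genes, without total replicate 1 it called 1 and without total replicate 2 it called 0. Reads of the paired histone copies are uncertain for the single gene.

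Among genes of the expression machinery, mitochondrial ribosomal proteins and decay factors were called higher more often than the 14.6% of all features. Mitochondrial ribosomal protein genes, which serve the ribosome inside mitochondria, were higher in 22 of 66 and lower in 0 (median 0.44), beside cytosolic medians of -1.36 and -1.30. MRPL36, of the large mitochondrial subunit, had 143, 111, 131 and 88.2 RPM in nascent RNA, against 58.2 and 59.2 RPM in total RNA (1.07 ± 0.19), without overlap. Factors of mRNA decay were higher in 11 of 36 and lower in 0 (median 0.46), among them the nuclear exosome subunit RRP6 (0.91 ± 0.18) and CAF130 of the Ccr4-Not complex (1.19 ± 0.24). Ribosome biogenesis genes were higher in 15 and lower in 2 of 105, near the 14.6% of all features on the high side, with UTP9 at 1.03 ± 0.23. In TFIIH 3 of 10 genes were higher, the helicase SSL2 (0.70 ± 0.21), the cyclin partner of Kin28 CCL1 (0.68 ± 0.19) and RAD3 (0.51 ± 0.18), and TFB5 was lower (-1.11 ± 0.39). Of 11 RNA polymerase II subunits 4 were higher and 1 lower, with RPB3 at 1.26 ± 0.24 and RPB9 at 0.91 ± 0.18. Of 20 subunits of polymerases I and III 3 were higher and 1 lower, and for these the higher count was near the 14.6% of all features. Without total replicate 1 and without total replicate 2 the calls fell to 6 and 5 mitochondrial, 3 and 3 decay, 4 and 3 biogenesis and 0 and 0 TFIIH genes, 3 and 2 polymerase II and 1 and 0 polymerase I and III subunits. Without nascent replicate 1 there were 12 mitochondrial and 6 decay genes.

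Transcription factors of rapid response were called in both directions, with 9 of 45 higher and 4 lower. Their median was 0.10, and -0.05 with scaling to S. pombe reads. Counts here stand beside 14.6% of all features called higher and 14.4% called lower. Beside RPN4 on the high side stood GAL4 on the low side, the galactose activator, with 3.51, 18.6, 44.6 and 11.6 RPM in nascent RNA, against 67.4 and 138 RPM in total RNA (-3.29 ± 0.59). Of 9 mating genes 5 were higher and 1 lower, and STE2, the receptor for alpha factor, had 457, 875, 856 and 1005 RPM in nascent RNA, against 228 and 296 RPM in total RNA (1.37 ± 0.24), with 607 RPM in the mock pull-down. Stress genes of Msn2/4 were lower in 8 of 25 and higher in 1, including OM45, a mitochondrial outer membrane protein (-2.21 ± 0.45). Counts on the high side for transcription factors were 4, 2 and 5 without nascent replicate 1, total replicate 1 and nascent replicate 4. Leaving out total replicate 1, or total replicate 2, left 1 mating gene called higher and 2 Msn2/4 genes called lower, and without nascent replicate 1 the Msn2/4 count was 3.

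In metabolism most lists leaned toward the pool or were near 0. For comparison, 14.6% of all features were called higher and 14.4% lower. Amino acid genes of Gcn4 were lower in 12 and higher in 5 of 45, and HOM2 of the threonine and methionine branch had 37.5, 105, 63.0 and 56.4 RPM in nascent RNA, against 353 and 227 RPM in total RNA (-2.42 ± 0.22). Purine and pyrimidine genes were lower in 5 of 22 and higher in 0, with ADE17 at -2.09 ± 0.39. Ergosterol genes were lower in 6 of 25 and higher in 0, with ERG20 at -1.13 ± 0.23. TCA cycle and respiratory genes were lower in 3 of 39 and higher in 1, phosphate genes lower in 2 of 15 and higher in 0, and methionine genes 1 and 1 of 21. The methionine permease MUP1 was the higher one, with 575, 1290.0, 767 and 953 RPM in nascent RNA, against 210.1 and 319.8 RPM in total RNA (1.62 ± 0.32). Cell wall genes were higher in 5 and lower in 4 of 25, near the shares of all features. They ran from PST1 (1.74 ± 0.35) to the anaerobic mannoprotein gene TIR1 (-5.10 ± 1.01). TIR1 had 4, 0, 2 and 0 reads in nascent replicates 1 to 4, against 121 and 88 reads in total RNA, so that its fitted difference is no bound. Leaving out total replicate 1 left edgeR calling 2 Gcn4, 0 ergosterol, 2 purine and pyrimidine, 0 TCA and 1 cell wall genes lower. Gcn4 genes called higher numbered 0 without total replicate 2, 2 without total replicate 1 and 3 without nascent replicate 4. Ergosterol genes called lower numbered 3 without nascent replicate 4, and cell wall genes called higher 1 without total replicate 1, 2 without total replicate 2 and 3 without nascent replicate 1. The TCA, phosphate and methionine counts are too small to read.

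**Figure D3:**
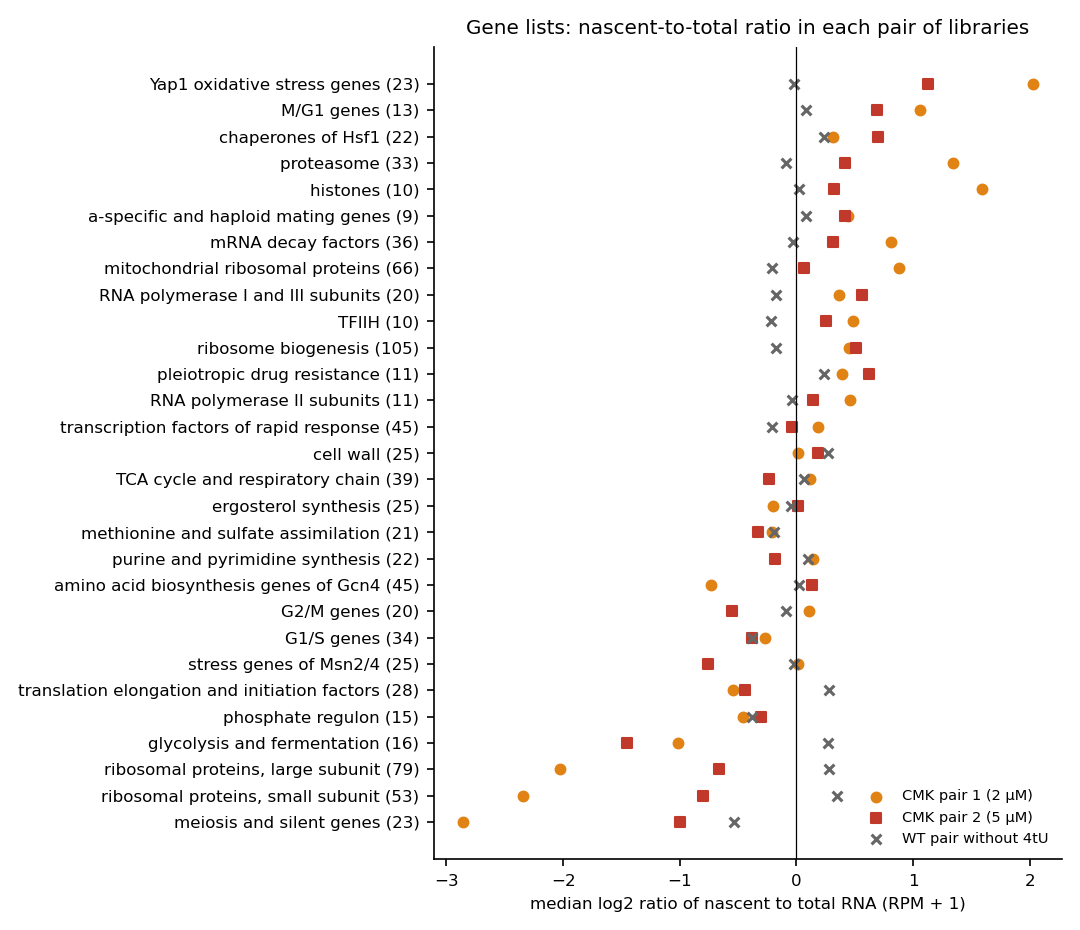
Each row is a gene list, with its number of genes tested, and points are the median log2 ratio of nascent to total RNA (RPM + 1) in CMK pair 1 at 2 µM (circles), CMK pair 2 at 5 µM (squares) and the WT pair without 4tU (crosses). Yap1 genes lie at 2.03 and 1.13 in the CMK pairs and at -0.02 without 4tU, and small-subunit ribosomal proteins at -2.34 and -0.80, against 0.35 without 4tU.

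Shares of reads give each list 1 value in each library. Of 29 lists, 7 had every nascent share above both total shares: mitochondrial ribosomal proteins, TFIIH, M/G1 genes, Yap1 genes, drug resistance genes, decay factors and rapid-response transcription factors. In 5 lists every nascent share lay below both total shares: the small and large ribosomal subunits, translation factors, glycolysis and TCA cycle genes. The other 17 overlapped. TCA cycle genes were separated by little, at 0.561 to 0.635% of nascent reads, against 0.642 and 0.654% of total reads. Yap1 genes averaged 2.52% ± 0.757 of nascent reads (SD, n = 4), against 0.831% ± 0.103 of total reads (SD, n = 2), a 3.04-fold difference. Glycolysis genes averaged 0.903% ± 0.266 of nascent reads, against 2.73% ± 1.07 of total reads, 3.02-fold lower. With 4 and 2 libraries the exact two-sided permutation test cannot go below p = 0.133, which these lists reached, and the smallest value adjusted over 29 lists was 0.322.

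**Figure D4:**
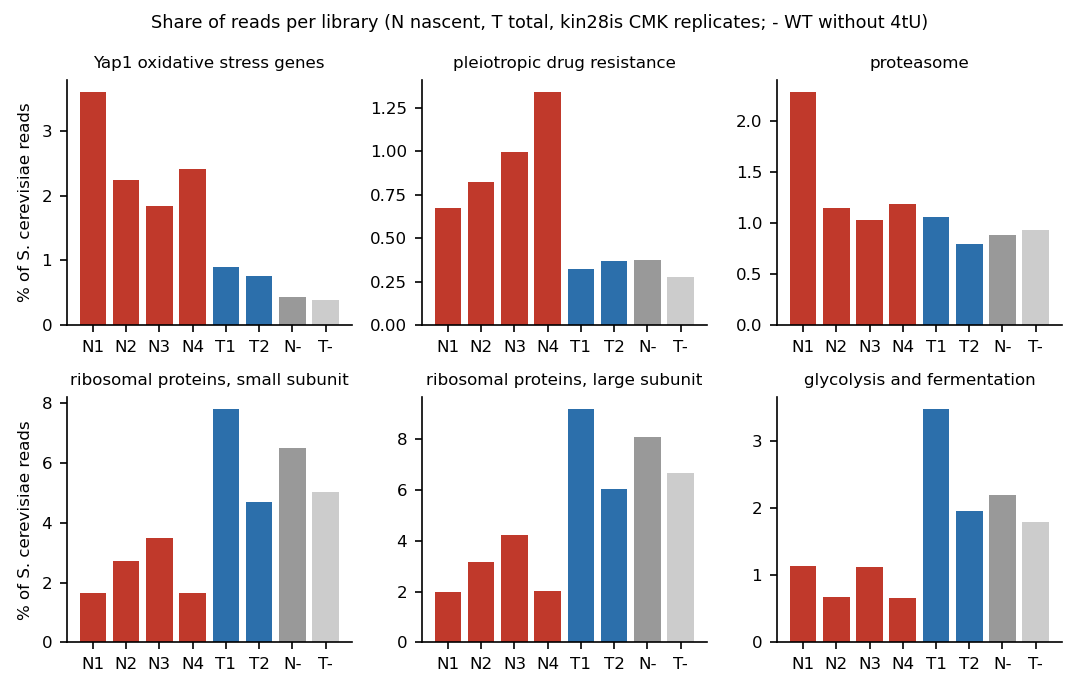
Bars show the percentage of S. cerevisiae reads taken by 6 gene lists in nascent replicates 1 to 4 (N1 to N4, red) and total replicates 1 and 2 (T1 and T2, blue) of kin28is cells with CMK, and in the WT mock pull-down (N-) and total RNA (T-) without 4tU (grey). Yap1 genes take 3.60, 2.25, 1.84 and 2.41% in N1 to N4, against 0.904 and 0.759% in T1 and T2, and proteasome bars overlap between the fractions.

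The comparison with DMSO asked whether the split between new and standing RNA differed from that without the inhibitor. A split was present there too: 622 features were called higher and 816 lower in nascent RNA of kin28is cells with DMSO, and 606 and 637 in WT cells with CMK. These contrasts share the fit with the CMK contrast, and each is given by its own values. Small-subunit ribosomal protein genes had a median of -1.36 with CMK in kin28is cells, -1.98 with CMK in WT cells and -2.22 with DMSO in kin28is cells. By share of reads, pair 1 alone ran the other way between CMK and DMSO in kin28is cells, as given below. Yap1 genes had medians of 1.52, 0.60 and 0.16 in the same order, with 15, 5 and 1 genes called higher. Proteasome genes had medians of 0.77, 0.24 and -0.29. These values are relative to the other S. cerevisiae genes. With scaling to S. pombe reads the median of all features stood at -0.10, 2.11 and 1.59, that of Yap1 genes at 1.58, 2.71 and 1.72, that of proteasome genes at 0.74, 2.33 and 1.30, and that of small-subunit ribosomal protein genes at -1.53, 0.11 and -0.59.

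Tested as a difference of the 2 contrasts in kin28is cells, CMK minus DMSO, 2 of 5234 features were called higher (0.0382%) and 0 lower by edgeR, with 971 at unadjusted p under 0.05 and 150 higher and 61 lower by DESeq2. PUP2, a core subunit of the proteasome, was the first (1.70 ± 0.31, adjusted p = 0.0464). With CMK it had 537, 278, 270.4 and 291 RPM in nascent RNA, against 185 and 157 RPM in total RNA. With DMSO it had 527, 324 and 283 RPM in nascent RNA, against 432 and 514 RPM in total RNA. The nascent ranges of the treatments overlapped, and both total values were lower with CMK. PIS1, phosphatidylinositol synthase, was the second (1.55 ± 0.27, adjusted p = 0.0453), with 135, 108, 113 and 120.1 RPM in nascent and 69.2 and 68.8 RPM in total RNA with CMK. With DMSO it had 139, 98.4 and 103 RPM in nascent RNA, against 164 and 145 RPM in total RNA. Neither call was kept without the replicate term, and with scaling to S. pombe reads both differences were below 0.

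The same pattern, a lower relative level in total RNA with CMK, was seen in the Yap1 genes. Their share of total RNA was 0.904% and 0.759% in kin28is cells with CMK, against 2.48% and 2.15% with DMSO, and WT cells with CMK had 2.44% and 1.85%. Their share of nascent RNA was 3.60%, 2.25%, 1.84% and 2.41% with CMK, against 3.46%, 3.27% and 3.24% with DMSO. Both total shares with CMK lay below the other total shares given, and of the nascent shares with CMK replicate 1 lay above and replicates 2 to 4 below those with DMSO. Labelling itself went with a difference in these genes: total RNA of WT cells with DMSO held 2.32% and 2.19% with 4tU, against 0.385% in the 1 library without it. The part of the label in the Yap1 values was not tested. Per gene, the median CMK-minus-DMSO log2 ratio was 0.08 and -0.63 in nascent RNA of pairs 1 and 2 and -1.40 and -1.48 in total RNA, with 21 and 20 of 23 genes below 0 in total RNA. Over all features these medians were -0.01, 0.14, 0.10 and 0.55. This set of values was chosen after the data were seen and carries no test.

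GRE2 shows it at the level of 1 gene. In total RNA of kin28is cells it stood at 399 and 399 RPM with CMK, against 2084 and 1759.9 RPM with DMSO. In nascent RNA it stood at 2818, 1989, 1525 and 1976 RPM with CMK, against 3159, 3029 and 2799 RPM with DMSO. Both total values were far lower with CMK, while the nascent ranges met, since replicate 1 with CMK exceeded the lowest DMSO value. The difference of contrasts was 2.02 ± 0.47 and did not pass (adjusted p = 0.0914). Of the 23 Yap1 genes 22 had a positive difference of contrasts and 14 an unadjusted p under 0.05, and 0 passed adjustment by edgeR. On the S. pombe scale the list's median difference of contrasts was -0.32, beside -1.64 over all features, so the direction held only relative to the other genes.

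Proteasome genes had the same sign in all 33 members (median difference of contrasts 0.96, 24 at unadjusted p under 0.05, 1 called), with median CMK-minus-DMSO ratios of -0.71 and -0.96 in total RNA and 0.10 and -0.31 in nascent RNA. Histone genes stood at -1.09 and -1.61 in total RNA and -0.23 and -0.70 in nascent RNA. Ribosomal proteins differed between the fractions in pair 2: small-subunit genes stood at 1.03 in nascent and -0.42 in total RNA, and at -0.12 and 0.16 in pair 1. By share of reads, the small-subunit nascent-to-total ratio was 0.211 with CMK and 0.265 with DMSO in pair 1. In pair 2 it was 0.581 and 0.225. The large-subunit ratio was 0.214 and 0.273 in pair 1, and 0.527 and 0.218 in pair 2. Pair 1 was thus lower with CMK and pair 2 higher. In the fit over both sets, all 53 small-subunit and 79 large-subunit genes had a positive difference of contrasts, 13 and 14 with unadjusted p under 0.05. Of these 0 were called by edgeR. On the S. pombe scale the medians were -0.67 for the proteasome, -0.97 for the small and -1.01 for the large subunit, all above that of all features and below 0. In the pair 2 nascent library the mock pull-down ratio amounted to 28% of the S. cerevisiae to S. pombe ratio, and the mock pull-down itself is rich in ribosomal protein reads (6.50% small-subunit). Its part in that value was not tested. Meiosis and silent genes stood at 3.45 in total RNA of pair 2, with 1.98 in WT cells.

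Between strains under CMK, kin28is minus WT, edgeR called 0 features (0.0%) in either direction, with 381 at unadjusted p under 0.05, and DESeq2 called 2 higher and 9 lower. The smallest p-values on the high side, none of which passed, were those of YFH1, NDE1, CCS1, RPO26 and IES5, and on the low side those of CHS2, SWI1, MSB1, CAF120 and SPA2. NDE1, an external NADH dehydrogenase of mitochondria, differed by 1.31 ± 0.35 (adjusted p = 0.469), and CHS2 by -1.28 ± 0.29 (adjusted p = 0.469). Of the lists, Yap1 genes had a median of 0.82 with 20 of 23 positive, and G2/M genes -0.70 with 3 of 20 positive, beside 0.03 over all features. Set against S. pombe reads, kin28is cells had 3.09-fold and 4.82-fold lower nascent-to-total ratios than WT cells under CMK in pairs 1 and 2. With scaling to S. pombe reads the medians were -1.32 for Yap1 genes, -2.84 for G2/M genes and -2.16 for all features.

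**Figure D5:**
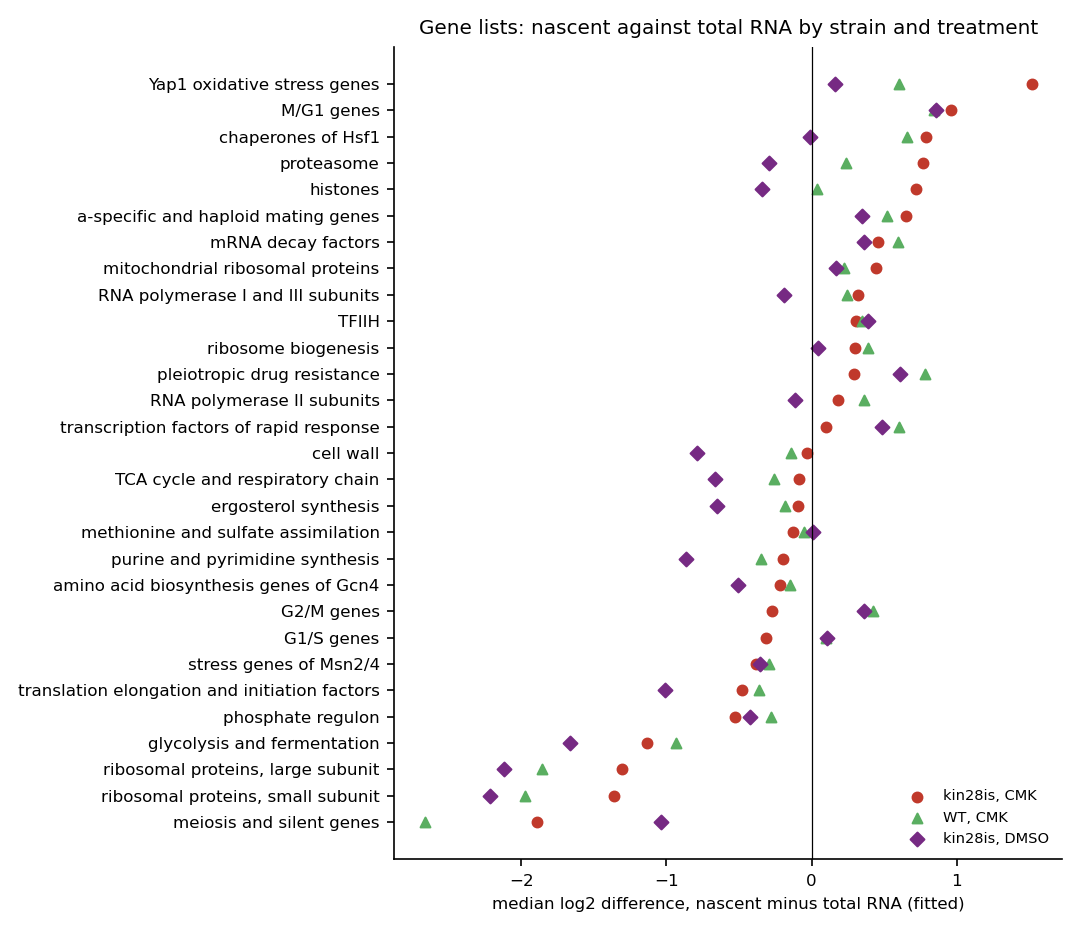
Each row is a gene list and each point its median fitted log2 difference, nascent minus total RNA, in kin28is cells with CMK (circles), WT cells with CMK (triangles) and kin28is cells with DMSO (diamonds). Yap1 genes lie at 1.52, 0.60 and 0.16, and the ribosomal protein lists lie below -1 in all 3 groups.

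Sequence features that the fit did not use are given as a description, with no test. Coding sequences had a median of 1369.5 bases in genes called higher, 1101 bases in genes called lower and 1263 bases in all genes. An intron was present in 2.39% of genes called higher, 11.6% of those called lower and 4.65% of all. Median GC content was 39.1%, 41.4% and 39.7% in the same order. Across 4919 genes averaging at least 20 RPM the rank correlation of the difference with coding length was 0.08 and with the share of T in the coding strand 0.10, and with GC content it was -0.17, as descriptions over genes that share libraries. By length, the median difference was -0.26 under 500 bases and 0.09 over 2500 bases. What part length and base composition had in the calls was not tested.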

How the data were processed

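The authors deposited 1 table of raw read counts per gene for all 34 libraries, S. cerevisiae and S. pombe features together. Per the submitters' processing notes, the tools were STAR 2.3.0 and CASAVA 1.8.2 with HTSeq 0.6.0, and the build was sacCer3. How reads were assigned to each genome and whether strand was used are not given in the sources used here, so near-identical, overlapping and antisense genes are uncertain. Of 5368 S. cerevisiae open reading frames 5241 matched RefSeq R64 by locus name.

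The counts of 28 libraries (12 groups: WT and kin28is, each with DMSO, CMK or 1-NAPP-1, another inhibitor, in both fractions) were fitted with edgeR 4.0.16 (quasi-likelihood, TMM factors from S. cerevisiae features, filterByExpr with a minimum count of 10, R 4.3.3), with replicate set as a term within each fraction. Set 1 is replicate 1 at 2 µM, and each contrast stands midway between the sets. The term does not match a nascent library with the total library of the same number. Deviations of same-numbered nascent and total libraries correlated above 0.1 in 12 of 12 pairs (lowest r 0.13, median 0.41). The pairs are not independent: groups of 2 deviate as mirror images, so the 6 WT pairs give 3 values. p-values were adjusted over 5234 features. On simulated counts for the nascent against total comparison (5234 features) 57% of log2 changes of 1 and 94% of changes of 2 were recovered. Ratios within a pair used RPM with 1 added. Shares were tested by exact permutation. DESeq2 1.42.0 and other settings were alternatives.

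The text names KIN28 and, in each direction, up to 10 called genes with the largest difference that averaged at least 20 RPM, did not overlap between fractions and, if higher, exceeded the pair without 4tU; up to 4 that failed this last condition; up to 6 called genes a direction, or the 5 with the smallest p where none was called, for each difference of contrasts; and 2 genes of each list with the smallest p. Others were chosen after their values were seen. The members, lists and tests were chosen with earlier results of these data known.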

Additional observations from a re-analysis of the deposited data

Results flagged for a closer look

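In 11 of 122 sets of 4 nascent values the highest or lowest library lay far from the other 3, and 9 of these were nascent replicate 1, the only one at 2 µM. That library also held 9692180 S. cerevisiae reads, against 323258 to 691221 in the others. The mock pull-down reached 1.03% of its S. cerevisiae to S. pombe ratio, against 28% to 51.9% in the others. Dose, depth and mock ratio cannot be told apart here. Chance flags about 1 in 20 such sets. Nascent replicate 1 stood apart in TDH1 (368 RPM), PUP2 (537 RPM), RPO26 (278 RPM) and HHF2 (488 RPM). It also stood apart in the share of reads in RNA polymerase II subunits (0.508%), histones (0.381%), G1/S genes (0.400%), the phosphate regulon (0.361%) and the proteasome (2.29%). Nascent replicate 3 stood apart in STM1 (1252 RPM) and TIR1 (5.25 RPM, which is 2 reads, against 4, 0 and 0 reads in nascent replicates 1, 2 and 4).

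The nascent-to-total contrast differed between CMK and DMSO in kin28is cells, by the test of the difference itself, for PUP2 (1.70, log2) and PIS1 (1.55).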

How the results depend on the processing

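The counts of genes called in nascent against total RNA, 763 higher and 752 lower, were 367 and 322 with no replicate block, 113 and 95 with the 6 kin28is CMK libraries alone and a replicate block, 0 and 0 with the 5 µM libraries alone, and 0 and 1 with scaling to S. pombe reads. Leaving out 1 library gave 256 to 851 higher and 184 to 840 lower. Blocking by culture, RPM without TMM factors, no filter and DESeq2 kept both counts within 1.5 times. Genes higher in the CMK-minus-DMSO difference numbered 0 with no replicate block, with a block by culture, with the 5 µM libraries and with S. pombe scaling, 1 with RPM and 150 with DESeq2, and 0 to 44 with 1 library left out. Genes lower in it numbered 61 with DESeq2 and 0 to 48 with 1 left out. The kin28is-minus-WT difference gave 2 higher and 9 lower with DESeq2, and 0 to 7 and 0 to 29 with 1 left out. The cause was not tested in these cases, other than fewer samples in the fit.

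KIN28 turned to 0.19 with a block by culture, and leaving out 1 library gave -0.43 to 0.01. S. pombe scaling moved the median of all features to -0.10 for nascent against total, -1.64 for CMK minus DMSO and -2.16 for kin28is minus WT, and turned PUP2 to -0.035, PIS1 to -0.19, YFH1 to -0.92, NDE1 to -1.05, CCS1 to -0.84, RPO26 to -1.03 and IES5 to -1.02. Differences in share, in percentage points, turned with the 5 µM libraries alone for histones (-0.00653), Gcn4 genes (0.0239) and methionine genes (-0.000457). With 1 library left out they ran from -0.0295 to 0.430 for ribosome biogenesis, -0.0182 to 0.0825 for histones, -0.0909 to 0.00452 for G2/M genes, -0.520 to 0.0200 for Gcn4 genes, -0.0265 to 0.0503 for methionine genes and -0.158 to 0.0129 for phosphate genes. Of 78 named genes, all 78 kept their direction and their side of the threshold with DESeq2 and with no filter. The threshold was no longer passed by 26 with no replicate block, 4 with a block by culture, 36 with the 6 libraries alone, 1 with RPM, 77 with S. pombe scaling, 11 without nascent replicate 1, 3 without nascent replicate 4, 16 without total replicate 1, 21 without total replicate 2 and 77 with the 5 µM libraries alone.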
